A study of Xenopus tropicalis with 12 samples.

Results

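Genes for the proteins of the cytosolic ribosome were followed through metamorphosis in the brain of the frog Xenopus tropicalis. They were found by name: a gene model counted where the symbol given to it in the deposited tables was that of a protein of the small subunit (rps, rpsa) or the large subunit (rpl, rplp), with the rps6k kinase genes left out. Of 33875 gene models, 74 carried such a name, and they held 72 distinct names. Of the 74, 32 also named a second gene and were set aside, because reads of either gene are counted there. The 42 models that remained held 40 names, and each name was taken from its model with the most counts. That gave 40 genes, 13 of the small and 27 of the large subunit, and all 40 passed the filter on low counts.

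RNA was sequenced from a dissected block of brain that takes in the thalamus, the hypothalamus and the preoptic area in front of it. All animals were wild type, from the supplier NASCO, and the labels name no treatment. There were 4 Nieuwkoop-Faber (NF) stages with 3 libraries each: NF50 (premetamorphosis), NF56 (prometamorphosis), NF62 (the climax of metamorphosis) and NF66 (its end). The submitters call the libraries biological replicates, and no source used here says how many animals went into each. The NF50 libraries carry the numbers 1, 3 and 4, and those of the other stages 1, 2 and 3.

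A ribosome has a small subunit, which reads the mRNA, and a large subunit, which joins the amino acids, and each holds ribosomal RNA and a set of proteins, most of them in a single copy. The mRNAs of these proteins begin with a terminal oligopyrimidine (TOP) tract, which places their translation under the growth-sensing kinase mTOR, in part through the RNA-binding protein LARP1. Growing and dividing cells make many ribosomes, and ribosomal protein mRNAs are among the most abundant in most cells. The abundance of an mRNA, which is what was measured here, says nothing of how much of it was translated.

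The libraries held 12046529 (NF56 replicate 3) to 31029733 (NF66 replicate 3) expected counts, and the scaling factors were 0.931 to 1.046. Levels are in CPM, the counts of a library after that scaling and to a common total. Of 14 markers of the hypothalamus, 9 were found on models with a single name, and their summed level was 1106 to 1379 CPM at NF66 and 840 to 949 CPM at NF50. Of the 9, 4 rose, 1 fell and 4 were not called at NF66 against NF50. Of all models tested, 17.9% were called higher and 18.8% lower in that comparison. The largest part of the sum was held by npy, at 524 CPM at NF66 and 420 CPM at NF50. The gene cartpt was at 10.9 CPM at NF66 and 22.1 CPM at NF50, and sim1 stayed under 1 CPM. The libraries numbered 2 at NF56, NF62 and NF66 stood above the other libraries of their stage for the ribosomal protein genes, and NF50 replicate 3 stood below. In bulk tissue, fewer cells of a type and less RNA per cell cannot be told apart.

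Ribosomal protein mRNAs were most abundant before metamorphosis and lost most of their share of the RNA by the climax. The 40 genes took 4.86% ± 0.43 of all expected counts at NF50, 2.94% ± 0.31 at NF56, 1.91% ± 0.22 at NF62 and 2.02% ± 0.33 at NF66 (SD, n = 3 libraries each). The 3 libraries of NF50 gave 5.09%, 4.36% and 5.11%, and those of NF56 gave 2.87%, 3.28% and 2.66%. The NF62 libraries gave 1.79%, 2.17% and 1.78%, and the NF66 libraries 1.94%, 2.38% and 1.74%. Every NF50 library was above every NF56 library, every NF56 library was above every NF62 library, and the NF62 and NF66 libraries overlapped. The 27 large-subunit genes held 1.48% of counts at NF66 and 3.49% at NF50, and the 13 small-subunit genes held 0.541% at NF66 and 1.36% at NF50. With the 32 models that name a second gene added, the share was 9.91% at NF50, 6.23% at NF56, 4.28% at NF62 and 4.46% at NF66.

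**Figure D1:**
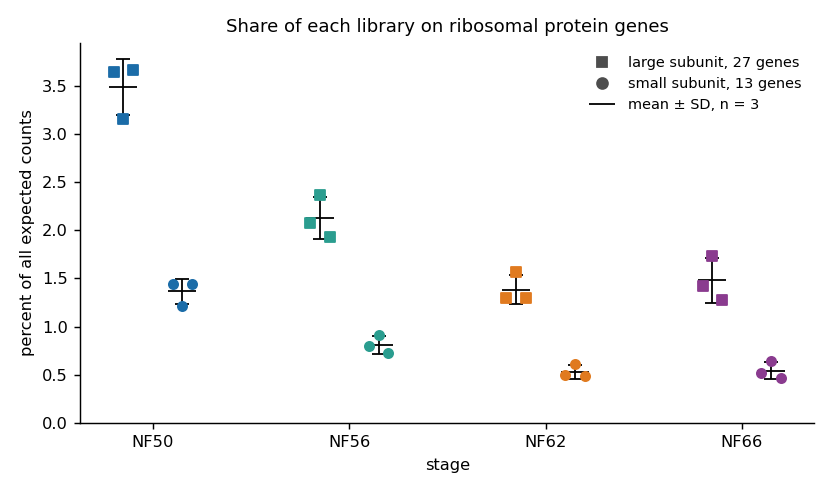
Percent of all expected counts on ribosomal protein genes (y axis, linear from 0) by stage (x axis), with a point for each library and the mean ± SD of 3 libraries in black; squares are the 27 large-subunit genes and circles the 13 small-subunit genes. Large-subunit genes held 3.49% of counts at NF50, 2.13% at NF56, 1.38% at NF62 and 1.48% at NF66, and the small-subunit genes lay below them in every library.

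Per length, the genes differed widely in level. In TPM, which divides by the length of the model and scales each library to a common total, rpl32, a protein of the large subunit, was highest at NF50 (10105 ± 1812), followed by rps12 of the small subunit (9847 ± 1817). Next at NF50 were rps21 (6319 ± 1256), rpl10 (5910 ± 1124) and rps29 (5816 ± 964). These SDs hold what the genes of a library share, so they do not measure differences between genes, which were not tested. Lowest among 39 of the genes at NF50 were rpl27a (304 ± 62.5 TPM) and rps27 (121 ± 24.9 TPM). At all 4 stages rpl32 and rps12 were first and second, and rpl27a and rps27 last of those 39. The model of rpl27a is 7512 bases long, the longest of the group, whose models span 320 to 7512 bases with a median of 1806.5. Those lengths are of gene models and not of the mature mRNAs, and 10 of the models are over 2500 bases, so a low TPM can go with a long model.

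Prometamorphosis (NF56) was compared with the stage before it (NF50). At NF56, 39 of the 40 genes fell and 0 rose, where 7.96% of the 19584 gene models tested were called lower and 6.51% higher (edgeR quasi-likelihood test, Benjamini-Hochberg adjusted p below 0.05). Both subunits were lower by like amounts: 12 of 13 small-subunit genes fell, with a median log2 fold change of -0.79, and 27 of 27 large-subunit genes, also with a median of -0.79. The median gene stood at 57.7% of its NF50 level, beside a median log2 fold change of -0.0015 for all models. For the 39 genes the 3 NF56 libraries lay wholly below the 3 NF50 libraries, which held in that direction for 19.0% of all models and in the other for 16.5%.

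The deepest fall was that of rps12, which codes for a protein on the small subunit's head. It had 981, 1166 and 830 CPM in NF56 libraries, against 2235, 1723 and 2300 CPM in NF50 libraries. The highest NF56 library, replicate 2, was still well below the lowest NF50 library, replicate 3. The log2 fold change was -1.07 ± 0.19 (SE, adjusted p = 0.00474 by edgeR, n = 3 and 3). Then came rpl36a (-0.99 ± 0.27) and rpl23 (-0.95 ± 0.24), which codes for a protein at the face where the subunits meet. The smallest falls were those of rpl6 (-0.62 ± 0.08), rpl29 (-0.67 ± 0.18) and rps18 (-0.68 ± 0.09).

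Among genes of known roles in the small subunit, rps6 codes for the classic substrate of the growth-regulated S6 kinases. It had 1256, 1444 and 1137 CPM at NF56, against 2187, 1892 and 2248 CPM at NF50 (-0.72 ± 0.14, adjusted p = 0.00597 by edgeR). The groups did not overlap, and again the highest NF56 library was replicate 2. The gene rps3, whose protein lines the mRNA entry channel, fell (-0.77 ± 0.17), as did rps19, the gene most often mutated in human Diamond-Blackfan anaemia (-0.91 ± 0.20), and rps24 (-0.75 ± 0.13). The gene rps27, at 52.7, 57.5 and 46.6 CPM in NF56 libraries and 94, 78.6 and 93.9 CPM in NF50 libraries, fell by a like amount (-0.76 ± 0.11).

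In the large subunit, rpl3, whose protein reaches into the catalytic centre, had 1567, 1668 and 1476 CPM at NF56, against 2765, 2473 and 2929 CPM at NF50. The spread within stages was small and the stages lay far apart (-0.79 ± 0.09, adjusted p = 0.000467 by edgeR). The genes rpl5 (-0.73 ± 0.10) and rpl11 (-0.78 ± 0.15), whose products bind the smallest ribosomal RNA together and, in mammals, the p53 regulator MDM2, also fell. So did rplp2, which codes for an acidic protein of the stalk that recruits elongation factors (-0.90 ± 0.19), and rpl10, a late-joining protein near the site of peptide transfer (-0.68 ± 0.14).

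Markers of other cells moved between the same stages. Of 8 dividing-cell markers tested, 6 fell and 1 rose at NF56, with a median of -1.44, and mki67 was at 46.3 CPM at NF56 and 75.4 CPM at NF50. The summed level of the 9 markers found was 270 to 286 CPM at NF56 and 294 to 307 CPM at NF50; mcm2, the marker that rose, made up most of it. Markers of radial glia and progenitors summed to 1514 to 1579 CPM at NF56 and 2014 to 2193 CPM at NF50 (3 of 6 fell). Those of neurons summed to 6090 to 6295 CPM at NF56 and 5355 to 5407 CPM at NF50; 3 of 10 rose and 0 fell, stmn2 alone was at 2445 CPM at NF56 and 1881 CPM at NF50, and gad1, gad2 and slc32a1 had lower means at NF56. The cyclin gene ccnb1 was at 0 in the NF56 libraries and at 0.033 CPM at NF50, no marker of these lists was at 0 in every library, and their part in the fall of ribosomal protein genes was not tested. On log2(TPM + 1) without a scaling factor, limma called 0 of the 40 genes, 27 had an unadjusted p below 0.05, and their median was -0.41 while that of all models moved to 0.32. In NF50 replicate 4, models under 300 bases took 37.2% of all TPM, against 12.6% to 19% in the other libraries, and with TPM rescaled without such models, an alternative chosen after seeing the data, limma called 38 lower.

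**Figure D2:**
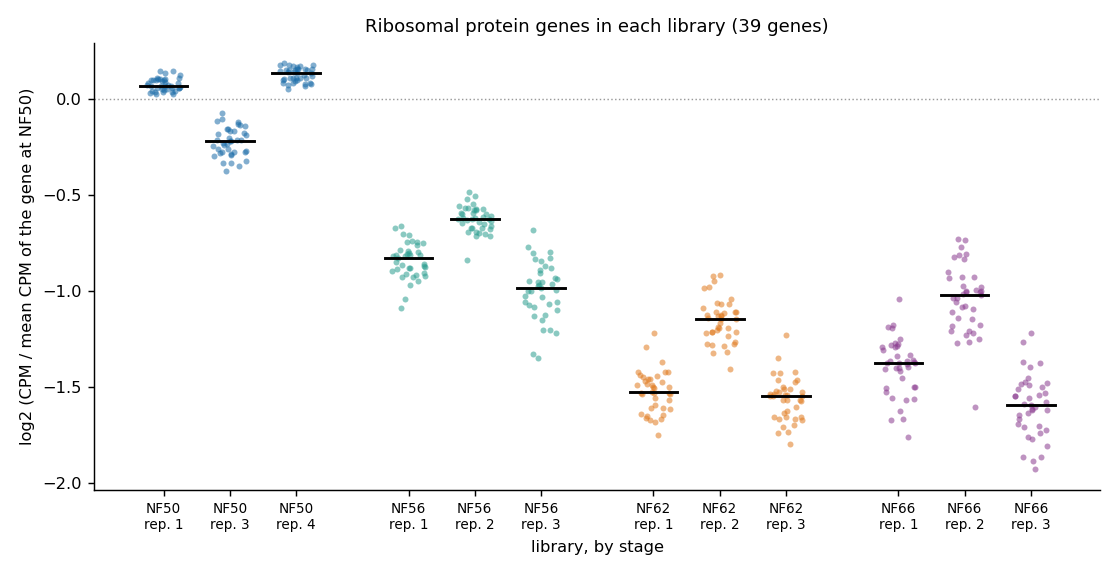
Level of 39 ribosomal protein genes in each of the 12 libraries (x axis, by stage), as log2 of the CPM over the gene's mean CPM at NF50 (y axis); each point is a gene and the black bar is the median of the library. Each gene's NF56 points lie below its NF50 points, the medians of NF62 and NF66 libraries lie below those of NF56 libraries, and the libraries numbered 2 are the highest of NF56, NF62 and NF66.

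The comparison of NF62 with NF56 covers the step into the climax. The genes were lower again: 24 fell and 0 rose, where 8.97% of all models tested were called lower and 9.94% higher by edgeR. The median log2 fold change was -0.59, so that the median gene stood at 66.2% of its NF56 level, beside a median of -0.0082 for all models. Of the 24, 7 belong to the small and 17 to the large subunit. In 39 genes the values were negative, from -0.76 to -0.43, and for 30 the libraries did not overlap (18.0% of all models in that direction).

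The largest falls of this step were those of rpl3, rpl11 and rps19. The gene rpl3 had 869, 1026 and 896 CPM in NF62 libraries, against 1567, 1668 and 1476 CPM in NF56 libraries (-0.76 ± 0.09, adjusted p = 0.000323 by edgeR). For rpl11 the values were 393, 507 and 389 CPM at NF62 and 698, 811 and 636 CPM at NF56 (-0.73 ± 0.15, adjusted p = 0.00587 by edgeR). In neither gene did the stages overlap, although NF62 replicate 2 stood above the other NF62 libraries. The gene rps6 fell (-0.67 ± 0.14), as did rps18 (-0.68 ± 0.09), rpl6 (-0.66 ± 0.08), rpl5 (-0.66 ± 0.10), rpl27a (-0.62 ± 0.10) and rps27 (-0.65 ± 0.11).

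The genes with the smallest differences were rpl10, rpl32 and rps12. The gene rpl10 had 840, 1039 and 836 CPM at NF62, against 1198, 1380 and 1091 CPM at NF56, so its stages did not overlap, but it missed the threshold (-0.43 ± 0.14, adjusted p = 0.0505 by edgeR). For rps12 the values were 660, 900 and 624 CPM at NF62 and 981, 1166 and 830 CPM at NF56, and NF62 replicate 2 lay above NF56 replicate 3 (-0.45 ± 0.19, adjusted p = 0.14 by edgeR). The stalk gene rplp2 was at 281, 390 and 275 CPM at NF62 and 462, 526 and 383 CPM at NF56 (-0.53 ± 0.19, adjusted p = 0.072 by edgeR). In both of these genes a single pair of libraries overlapped.

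How many genes were called in this step depended on single libraries and on the fit. The count was 11 without NF56 replicate 2, without NF62 replicate 1 or without NF62 replicate 3, 16 without NF56 replicate 1, and 33 without NF62 replicate 2. The 11 genes called whichever library was left out were rpl3, rpl4, rpl5, rpl6, rpl10a, rpl11, rpl27a, rps6, rps18, rps24 and rps27; rpl29, rpl7, rps19 and rps3 each lost the call without at least 3 of the libraries. On unscaled log2(TPM + 1) limma called 9, while DESeq2 called 33 and voom with quality weights called 39. Over the same step 6 of 8 dividing-cell markers and 3 of 6 progenitor markers fell, 7 of 10 neuron markers rose (to a sum of 6919 to 7379 CPM) and 4 of 6 oligodendrocyte markers rose (1588 to 1921 CPM at NF62, 1060 to 1120 CPM at NF56); their part in the fall was not tested.

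**Figure D3:**
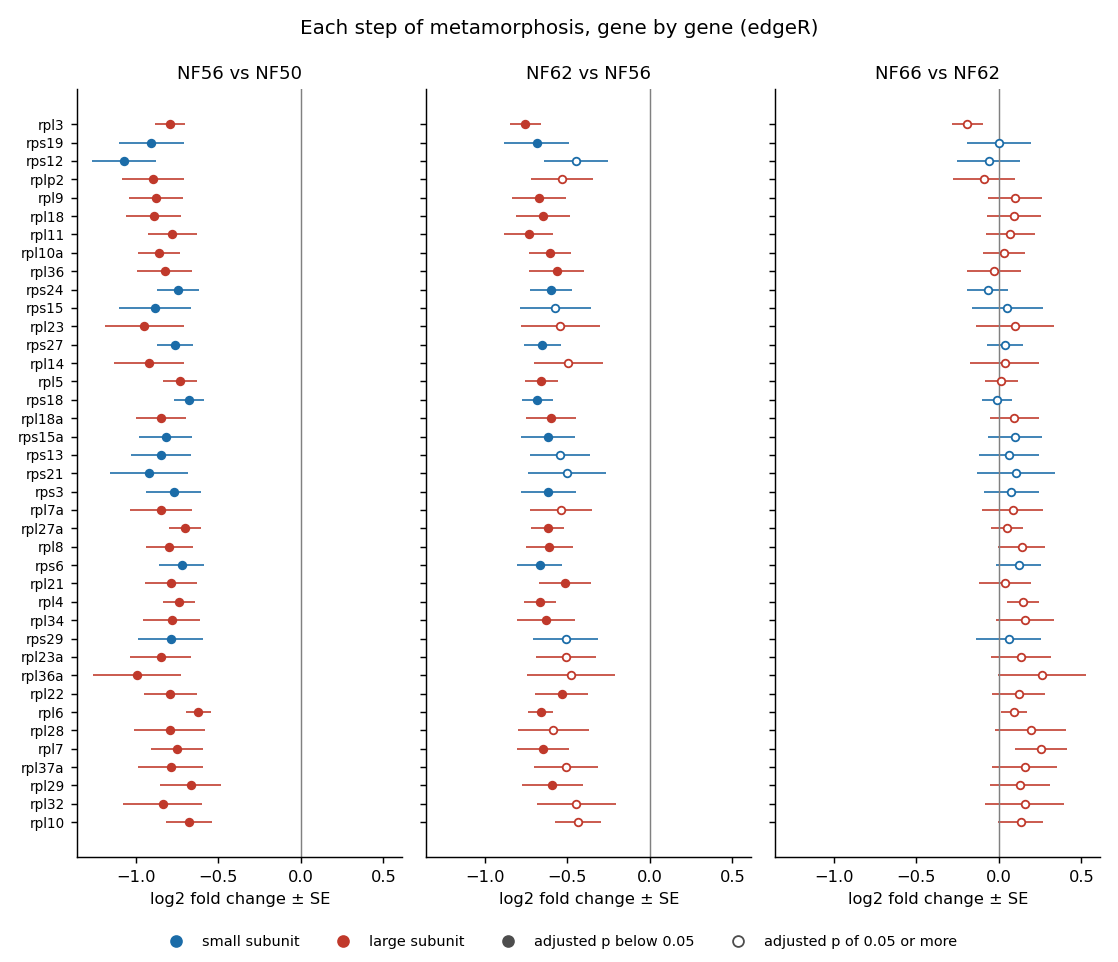
Log2 fold change ± SE (x axis) of each of 39 ribosomal protein genes (rows, ordered by the NF66 against NF50 value) in the 3 successive steps, from edgeR; blue is the small and red the large subunit, and filled points have an adjusted p below 0.05. All 39 points are filled in the NF56 against NF50 panel, 24 in the NF62 against NF56 panel and 0 in the NF66 against NF62 panel.

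Between the climax and the end of metamorphosis no ribosomal protein gene was called in the main fit. At NF66 against NF62, 0 of 40 fell and 0 rose, where 1.79% of all models were called lower and 1.38% higher by edgeR. At an unadjusted p below 0.05 edgeR also gave 0 in either direction, where 16.38% of all models passed that cut. At the same cut DESeq2 gave 1 lower and 0 higher, and limma on log2(TPM + 1) gave 0 in either direction. There voom with quality weights gave 1 lower and 6 higher. Each of these 3 alternatives called 0 after adjustment. With the replicate number as a block, edgeR called 1 lower and 1 higher after adjustment. The log2 fold changes of 39 genes ran from -0.19 to 0.26 with SEs of 0.08 to 0.27, with a median of 0.09; 32 of 39 genes had a higher mean at NF66 and 7 a lower one. For none did the libraries of the 2 stages separate, where 10.6% of all models separated downward and 8.86% upward.

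Among these values, rpl3 was lowest, with 803, 896 and 747 CPM at NF66, against 869, 1026 and 896 CPM at NF62 (-0.19 ± 0.09, adjusted p = 0.345 by edgeR). The genes rpl36a and rpl7 were highest: rpl7 had 831, 1129 and 765 CPM at NF66, against 712, 880 and 691 CPM at NF62 (0.25 ± 0.16, adjusted p = 0.491 by edgeR). Values of rps6 were 834, 1042 and 750 CPM at NF66 and 752, 925 and 739 CPM at NF62. In each of these genes the stages overlapped, and replicate 2 was the highest library of both.

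Across the whole span, NF66 against NF50, 39 genes fell and 0 rose, where 18.8% of all models were called lower and 17.9% higher by edgeR. The median log2 fold change was -1.31, so the median gene stood at 40.2% of its NF50 level, beside a median of 0.02 for all models. The small-subunit median was -1.34 and the large-subunit median -1.27. In the 39 genes every NF66 library lay below every NF50 library (24.1% of all models in that direction and 22.5% in the other). All 39 were called whichever single library was left out, and the highest adjusted p among them was 0.00453 (edgeR). Over the same span 7 of 8 dividing-cell markers and 5 of 6 progenitor markers fell, and 7 of 10 neuron markers and 4 of 6 oligodendrocyte markers rose. Of pituitary markers 4 of 5 tested fell, with sums of 26.8 to 70.5 CPM at NF66 and 109 to 168 CPM at NF50; of vascular and meningeal markers 5 of 9 fell and 1 rose, and of microglia and leukocyte markers 3 of 7 rose. The part of these cells in the fall was not tested.

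The fitted falls of the 39 genes spanned a range. The largest fall was that of rpl3, to 815 ± 75.1 CPM at NF66, against 2722 ± 231 CPM at NF50 (-1.74 ± 0.095, adjusted p = 4.01e-07 by edgeR, n = 3 each), or 29.9% of its NF50 level. The smallest was that of rpl10, to 991 ± 171 CPM at NF66, against 1959 ± 192 CPM at NF50 (-0.98 ± 0.14, adjusted p = 0.000236 by edgeR), or 50.6%. After rpl3 came rps19 (-1.59) and rps12 (-1.58), and next to rpl10 at the other end were rpl32 (-1.13) and rpl29 (-1.13). The SEs of single genes reached 0.27. They hold deviations that the genes of a library share, so they do not measure the error of a difference between genes. Differences between neighbours in this order were not tested.

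Within a library, a gene can be set against the others, which takes away only what all of them share in equal measure. CPM is not corrected for length, so only the shift between stages is read. Relative to the mean log2 CPM of the other ribosomal protein genes, rpl3 stood 0.93, 0.73 and 1.03 higher in NF66 libraries, against 1.25, 1.40 and 1.29 in NF50 libraries. At NF56, NF62 and NF66 the relative level of rpl3 was lowest in replicate 2 and highest in replicate 3. Differences that go with the library thus remained. On the same scale rpl10 stood 1.18, 1.13 and 1.21 higher in NF66 libraries, against 0.79, 0.88 and 0.80 in NF50 libraries. For both genes the stages did not overlap, and the NF66 values were lower for rpl3 and higher for rpl10. For rps12 the relative level was 0.63, 0.68 and 0.64 at NF66 and 0.94, 0.86 and 0.93 at NF50. Its course between them was not steady. The NF56 libraries were at 0.66, 0.69 and 0.57, and the NF62 libraries at 0.77, 0.85 and 0.73, each above every NF56 library. These genes were picked as the extremes of the same fold changes, so the values are a description and carry no test.

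**Figure D4:**
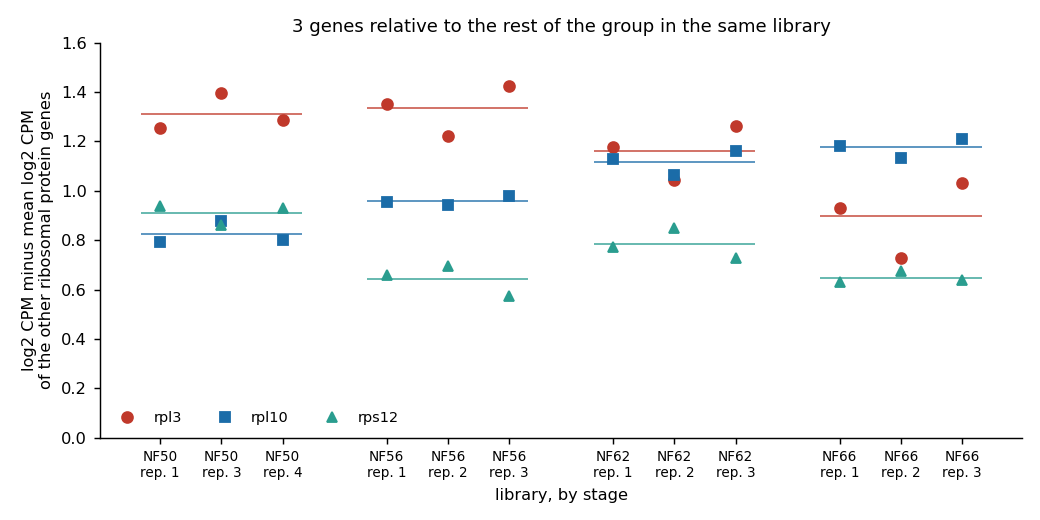
Log2 CPM of rpl3, rpl10 and rps12 minus the mean log2 CPM of the other ribosomal protein genes in the same library (y axis), for the 12 libraries by stage (x axis); lines are stage means. Points of rpl3 lie at 1.25 to 1.40 at NF50 and 0.73 to 1.03 at NF66, and those of rpl10 at 0.79 to 0.88 at NF50 and 1.13 to 1.21 at NF66.

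The 39 genes had their highest stage mean at NF50 and a lower mean at each of the next 2 stages. The lowest mean was at NF62 for 32 genes and at NF66 for 7, namely rpl3, rpl36, rplp2, rps12, rps18, rps19 and rps24. A test for any difference among the 4 stages called 39 of the 40, where 39.6% of all models were called. Summed counts of the small-subunit genes were 0.361 to 0.369 of those of the large-subunit genes at NF66, 0.372 to 0.388 at NF62, 0.374 to 0.385 at NF56 and 0.383 to 0.394 at NF50. The NF66 ratios were below those of every earlier library, while the other stages overlapped.

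The ribosomal protein genes also moved together between libraries of 1 stage. In NF66 replicate 2 all 39 were above their stage mean, by a median of 0.31 on the log2 scale, and in NF66 replicate 3 all 39 were below it (-0.24). The same held at NF62 (0.27 in replicate 2, -0.15 in replicate 3) and at NF56 (0.20 in replicate 2, -0.17 in replicate 3). At NF50 the low library was replicate 3 (-0.21) and replicates 1 and 4 were high (0.08 and 0.14). The median deviation of mitochondrial ribosomal protein genes was 0.05 in NF66 replicate 2 and -0.10 in NF66 replicate 3, 0.16 in NF62 replicate 2 and -0.09 in NF62 replicate 3, and 0.09 in NF56 replicate 2 and -0.12 in NF56 replicate 3. Of all tested models, 52.5% were above their stage mean in NF66 replicate 2, 55.3% in NF62 replicate 2 and 52.8% in NF56 replicate 2, against 47.9%, 45.3% and 48.2% in replicate 3 of those stages. Models under 300 bases took 0.617% of counts in NF66 replicate 2 and 0.408% in replicate 3, 0.697% in NF62 replicate 2 and 0.434% in replicates 1 and 3; the part of this in the shared deviation was not tested, and the labels name no batch.

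The genes also differed in spread. The SD of log2 CPM within stages had a median of 0.23 over the 39 genes, against 0.10 over the 634 models of all kinds whose average log2 CPM was 8 or more. It was lowest for rpl6 (0.09) and rps18 (0.12) and highest for rpl36a (0.38) and rpl32 (0.34). Across the 39 genes, which share the same libraries, this spread was lower for longer models (Spearman rho -0.40), while for model length and the NF66 against NF50 log2 fold change rho was -0.004. The gene rpl6, with one of the smaller falls (-1.19 ± 0.08), had an adjusted p of 1.19e-06 at NF66 against NF50 (edgeR). Without the 3 libraries numbered 2, an alternative chosen after seeing the data, 39 genes were called lower at NF56 against NF50, 32 at NF62 against NF56, 0 at NF66 against NF62 and 39 at NF66 against NF50.

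The 32 models that name a ribosomal protein gene and a second gene were called lower in the same comparisons. They include rplp0, rplp1, rps14, rps27a and rpl38, and in these the reads of the partner cannot be separated. Of the 32, 31 were called lower at NF56 against NF50 (median -0.73), 16 at NF62 against NF56 (-0.49), 0 in either direction at NF66 against NF62 (0.04) and 32 at NF66 against NF50 (-1.13) by edgeR.

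Other lists were set beside them, and their counts are to be read against the shares of all models called. Those shares were 7.96% lower and 6.51% higher at NF56 against NF50, 8.97% and 9.94% at NF62 against NF56, 1.79% and 1.38% at NF66 against NF62, and 18.8% and 17.9% at NF66 against NF50. Of 14 other mRNAs with a known TOP tract that were tested, 11 fell and 1 rose at NF56 against NF50, 11 fell and 1 rose at NF62 against NF56, 1 fell and 2 rose at NF66 against NF62, and 13 fell and 1 rose at NF66 against NF50, with medians of -0.41, -0.46, 0.04 and -0.81. The gene eef1a1, which codes for the factor that brings aminoacyl-tRNA to the ribosome, had 3145, 3637 and 3287 CPM at NF66, against 7617, 6932 and 7635 CPM at NF50 (-1.14 ± 0.07, adjusted p = 8.48e-07 by edgeR). Its NF50 and NF66 libraries lay far apart. At NF62 it was already at 3076, 3326 and 3025 CPM, and its mean was not lower at NF66. The translationally controlled tumour protein gene tpt1 (-1.09 ± 0.11) and the exchange factor gene eef1b2 (-1.69 ± 0.09) also fell over that span, and eef1a1o, an elongation factor gene that is active in oocytes of Xenopus, fell to 0.846 CPM at NF66, against 15.6 CPM at NF50 (-4.18 ± 0.23).

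Not all TOP mRNAs followed that course. The gene naca, which codes for a subunit of the complex that meets nascent chains at the ribosome, rose, with 226, 219 and 221 CPM at NF66, against 180, 166 and 167 CPM at NF50 (0.38 ± 0.05, adjusted p = 0.000192 by edgeR). The initiation factor genes eif3e (0.36 ± 0.08) and eif4b (0.30 ± 0.06) rose at NF66 against NF62 after falling in both earlier steps. The RNA-binding protein gene hnrnpa1 fell in the same step (-0.38 ± 0.05). Whether these genes differ from the ribosomal protein genes was not tested.

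Wider lists of translation factors moved in both directions. Of 10 elongation and termination factor genes, 7 fell and 0 rose at NF56 against NF50, 3 fell and 2 rose at NF62 against NF56, 1 fell and 0 rose at NF66 against NF62, and 7 fell and 1 rose at NF66 against NF50; some are also on the TOP list. Of 39 initiation factor genes, 16 fell and 0 rose, 12 fell and 6 rose, 3 fell and 2 rose, and 27 fell and 3 rose in the same order of comparisons. At NF62 against NF56 eif3m fell (-0.74 ± 0.06) and eif4g3, which codes for a scaffold of the cap-binding complex, rose (0.82 ± 0.09). The helicase gene eif4a1 fell at NF66 against NF62 (-0.60 ± 0.08).

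Genes that build ribosomes were called most often in the first step. Of 94 genes of ribosome assembly and rRNA processing, 43 fell and 0 rose at NF56 against NF50 (median -0.34), 11 fell and 2 rose at NF62 against NF56 (-0.09), 2 fell and 1 rose at NF66 against NF62 (-0.10), and 73 fell and 2 rose at NF66 against NF50 (-0.48). The gene nop56, of the particle that methylates rRNA, was at 44.6 ± 2.89 CPM at NF56 and 82.2 ± 2.17 CPM at NF50 (-0.88 ± 0.10, adjusted p = 0.000351 by edgeR, n = 3 each). The gene pno1, needed for small-subunit maturation, fell at NF62 against NF56 (-0.91 ± 0.12). Of 14 tested models that carry the name of a small nucleolar RNA, 6 fell and 0 rose at NF56 against NF50. At NF62 against NF56, 3 fell and 0 rose, and 0 fell or rose at NF66 against NF62. At NF66 against NF50, 12 fell and 1 rose. Whether the counts of these models are of the small RNAs themselves was not tested. Of 25 genes of RNA polymerases I and III, which transcribe the ribosomal RNAs, 6 fell and 0 rose at NF56 against NF50 and 1 fell and 1 rose at NF62 against NF56; 0 fell or rose at NF66 against NF62, and 10 fell and 0 rose at NF66 against NF50.

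Genes of mitochondria and of protein breakdown were followed for comparison. Of 53 mitochondrial ribosomal protein genes, 10 fell and 0 rose at NF56 against NF50, 1 fell and 5 rose at NF62 against NF56, 1 fell and 0 rose at NF66 against NF62, and 29 fell and 2 rose at NF66 against NF50, with medians of -0.30, 0.09, -0.13 and -0.32. A list of nuclear genes of oxidative phosphorylation was made from the start of gene names and is not limited to subunits. Of its 53 genes tested, 13 fell and 0 rose at NF56 against NF50, and 2 fell and 14 rose at NF62 against NF56. Then 6 fell and 1 rose at NF66 against NF62, and 22 fell and 1 rose at NF66 against NF50. Of 30 proteasome genes, 5 fell and 0 rose at NF56 against NF50, 0 fell and 10 rose at NF62 against NF56, 11 fell and 0 rose at NF66 against NF62, and 12 fell and 1 rose at NF66 against NF50. At NF62 against NF56 the 5 of 53 mitochondrial ribosomal protein genes that rose are a share near that of all models (9.94%). These are counts within each list, and the differences between lists were not tested.

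**Figure D5:**
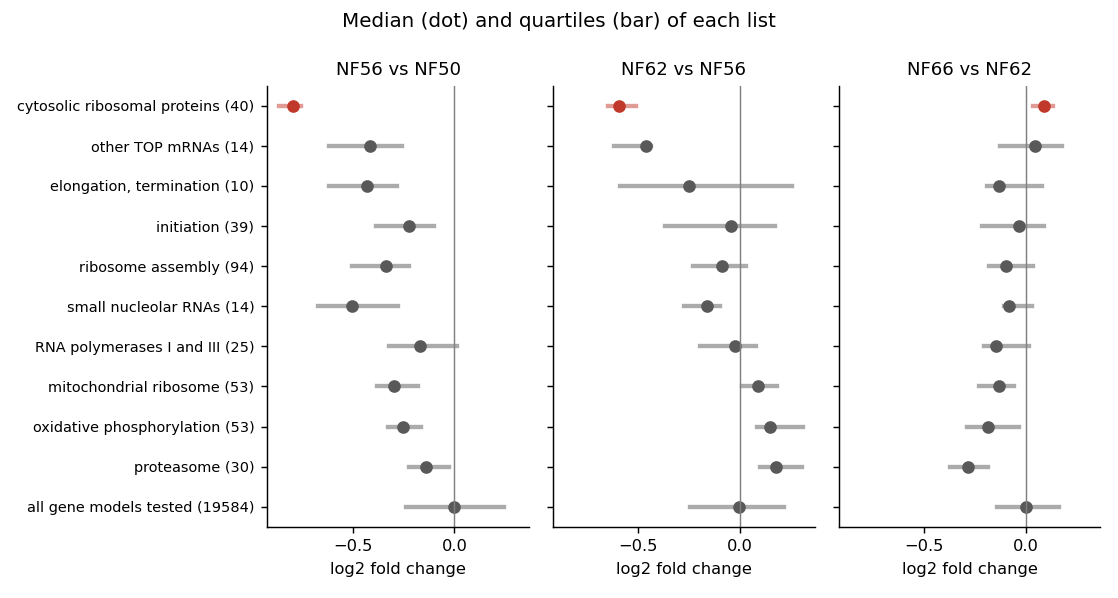
Median (dot) and quartiles (bar) of the log2 fold change (x axis) of the genes tested in each list (rows, with the number tested) for the 3 successive steps, from edgeR. Cytosolic ribosomal protein genes, in red, have medians of -0.79, -0.59 and 0.09, and all gene models tested have medians near 0.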

How the data were processed

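Per the file headers, the authors deposited RSEM expected counts (estimated counts) per gene model for 12 libraries, with TPM and lengths. Bowtie, RSEM, cutadapt, DESeq2 and CASAVA 1.8.2 are listed, without roles, in the submitters' processing notes; no source used here gives a genome build or annotation, and no coordinates or sequences are printed. Of the expected counts 53.7% were not whole, since RSEM divides reads among models, and all were rounded. Models repeated on several lines were taken once, which is why deposited TPM are used as values per model.

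Models were kept by filterByExpr (minimum count 10, total 15), which left 19584 with 99.93% of counts. All 12 libraries were fitted with a mean per stage by edgeR 4.0.16 in R 4.3.3 (TMM, quasi-likelihood F test, Benjamini-Hochberg over all models, threshold 0.05), and the script was tested on simulated counts. The biological coefficient of variation was 18.3%. SEs are the absolute log2 fold change over the square root of F; log2 CPM used a prior count of 2. P-values measure the spread between these libraries. DESeq2 1.42.0, limma 3.58.1 on log2(TPM + 1), other scalings, filters, a replicate block and leaving out each library were alternatives. A gene rose, fell or was called where its adjusted p passed.

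The genes, lists and comparisons were chosen with earlier results of these data known. Named genes are 17 names reported whatever their values, of which 9 matched a gene kept here. To these come, among genes averaging 3 or more in log2 CPM, the 3 lowest and 3 highest log2 fold changes of each comparison, the 3 highest and 3 lowest mean TPM, the 2 largest and 2 smallest SDs within stages, and, per related list and comparison, the 2 largest changes among genes called. Genes of the TOP list, marker genes, rps21, rps29, members listed beside a count, and mtor, larp1, rps6kb1 and myc were named after their values were seen. The counts of genes called are over all 40; ranges, ranks and plots are over 39, since 1 gene is not reported here.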

Additional observations from a re-analysis of the deposited data

How the results depend on the processing

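At NF66 against NF50, 39 genes were called lower in each fit of the whole group. On unscaled log2(TPM + 1), limma gave 0 lower at NF56 against NF50 (median -0.41), 9 at NF62 against NF56 and a median of -0.99 at NF66 against NF50; the median of all models moved to 0.32 and 0.29 in the comparisons with NF50. With models of a second gene counted as members, 70, 40 and 71 were lower at NF56 against NF50, NF62 against NF56 and NF66 against NF50, and 71 differed among stages. The members' share at NF50, NF56, NF62 and NF66 was then 9.91%, 6.23%, 4.28% and 4.46% of counts; of TPM the 40 genes took 9.53%, 6.90%, 4.54% and 4.78%. Restricted to models of at most 2500 bases, chosen after seeing the data, 15 of 30 were lower at NF62 against NF56. Over all 40 genes the count at NF62 against NF56 was 24 in the main fit, 39 with voom quality weights and 33 with DESeq2.

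Leaving out 1 library gave 26 to 39 lower at NF56 against NF50 (median -0.93 to -0.71), 11 to 33 at NF62 against NF56 (-0.73 to -0.50), 0 at NF66 against NF62 (-0.08 to 0.22) and 39 at NF66 against NF50 (-1.47 to -1.19). The 26 were the genes called whichever library was left out; among the others were rpl23, rpl28, rpl29, rpl32 and rpl36a.

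Libraries with the same replicate number correlated in their deviations from stage means at -0.18 to 0.64 over 15 pairs. The 6 pairs at or under 0.1 are those numbered 1 (-0.18 to 0.09), and the 9 pairs numbered 2 or 3 lie at 0.45 to 0.64; 7 of 12 libraries correlated best with their own number. Those 7 are the libraries numbered 2 or 3, and NF50 replicate 4 has no partner of its number. Pairs of different numbers ran from -0.73 (NF62 replicate 2 with NF66 replicate 3) to 0.56 (NF62 replicate 1 with NF66 replicate 3). High values were thus not limited to pairs of the same number. Deviations of the libraries of a stage balance out, so the low pairs numbered 1 do not show that a number is unshared. The labels tie no number to a batch, so the main fit held no block. Whether libraries of a number share more than the number was not tested. With the replicate number as a block, 39 were lower at NF62 against NF56, rpl10, rps12 and rplp2 among them, and 1 lower (rpl3) and 1 higher (rpl7) at NF66 against NF62, where 1 lower and 8 higher had an unadjusted p below 0.05; the counts at NF56 against NF50 and NF66 against NF50 were 39. Of the named genes' values no called one changed sign in any alternative. The cause of the dependence on single libraries was not tested.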

Other observations

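Of 45 growth-control genes of the mTOR and MYC pathways, 5 fell and 2 rose at NF56 against NF50, 3 fell and 4 rose at NF62 against NF56, 2 fell and 0 rose at NF66 against NF62, and 15 fell and 8 rose at NF66 against NF50 (edgeR), with medians of -0.07, 0.04, 0.03 and 0.003. Most of these counts are near the shares of all models called, such as 8.97% lower and 9.94% higher at NF62 against NF56 and 17.9% higher at NF66 against NF50. The 15 of 45 that fell at NF66 against NF50 are a larger share than the 18.8% of all models called lower. The gene rragd, which codes for a Rag GTPase that recruits mTOR to the lysosome, rose at NF66 to 54.7 ± 2.90 CPM, against 23.9 ± 0.531 CPM at NF50 (SD, n = 3 each; log2 fold change 1.19 ± 0.07 SE, adjusted p = 5.98e-07 by edgeR). The gene rps6ka2 also rose over that span (1.36 ± 0.22). The MYC family gene mycl fell both at NF62 against NF56 (-0.89 ± 0.11) and at NF66 against NF62 (-0.66 ± 0.11). In the first step its mean went the other way, with 38.8 CPM at NF56 and 27.8 CPM at NF50. Every NF56 library of mycl lay above every NF50 library. The genes mtor (0.05 ± 0.09) and larp1 (0.06 ± 0.06) had values near 0 at NF66 against NF50, while myc (-0.66 ± 0.15) and the S6 kinase gene rps6kb1 (-0.34 ± 0.09) fell.

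Close paralogs of ribosomal protein genes were measured too. The gene rpl22l1, a paralog of rpl22, fell at NF56 against NF50 (-0.95 ± 0.19) and at NF66 against NF50 (-1.27 ± 0.19), and rpl7l1 fell at NF66 against NF50 (-1.02 ± 0.27). Of 8 genes of the p53 arm of nucleolar stress, 2 fell and 1 rose at NF56 against NF50, 2 fell and 1 rose at NF62 against NF56, 1 fell and 0 rose at NF66 against NF62, and 5 fell and 1 rose at NF66 against NF50. The one that rose was cdkn1a, the cell cycle inhibitor gene, which was at 9.59 ± 1.19 CPM at NF66 and 3.64 ± 0.08 CPM at NF50 (1.40 ± 0.14, adjusted p = 1.62e-05 by edgeR).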
